A study of Homo sapiens with 8 samples.

Results

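The genes described here are the 10 that encode the CUL4-DCAF15 ubiquitin ligase, its ubiquitin-conjugating enzyme and the neddylation factors that switch it on or take it apart: DCAF15, DDA1, DDB1, CUL4A, CUL4B, RBX1, UBE2G1, NEDD8, UBE2M and CAND1. They were chosen by name, not by their values, from the 60624 genes listed in the count tables, but earlier results of these data were known. All 10 were among the 18661 genes with enough reads to test. The question was whether RNA for the ligase through which indisulam acts changed when cells received that drug, SPHINX31 or both. A549, a human lung adenocarcinoma cell line, was sequenced as polyA+ RNA in 4 groups of 2 libraries: untreated cells, indisulam, SPHINX31, and the combination of indisulam and SPHINX31. SPHINX31 is an inhibitor of SRPK1, the kinase that phosphorylates serine- and arginine-rich splicing factors. By the methods the treatment lasted 24 h, at 0.5 μM for indisulam and 5 μM for SPHINX31, whereas the protocol in the labels gives 2 μM indisulam for 18 h for every sample, a dose and time that the methods give for another cell line. All groups were the same line grown in the same medium, and the 2 libraries of a group were technical replicates, so every p-value below measures only the spread between such replicates and not that between separate cultures.

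Indisulam is a molecular glue. It holds the RNA-binding protein RBM39 against DCAF15, the substrate receptor of a cullin-RING ligase, and RBM39 is then ubiquitinated and destroyed by the proteasome. In this ligase DDB1 is the adaptor that carries the receptor, DDA1 is a small protein that steadies the contact of DDB1 and DCAF15, CUL4A or CUL4B is the scaffold, and RBX1 is the RING protein that brings in the charged ubiquitin-conjugating enzyme. The ubiquitin-like protein NEDD8 is placed on the cullin by the conjugating enzyme UBE2M and activates the ligase, the COP9 signalosome takes it off, and CAND1 binds the bare cullin and lets receptors be exchanged.

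In the same study, a genome-wide CRISPR screen for indisulam resistance found guides to DCAF15, DDA1 and CAND1 enriched in treated cells. Guides to these genes are shown because they mark the exons that were targeted. The guide table used here is shortened and holds 4 guides to DCAF15, 4 to DDA1 and 3 to CAND1, and 4 of these 11 are printed 5′ to 3′ in lower case with the adjacent PAM in capitals, read from GRCh38.
DCAF15-1: cgtgtccctcaagaacattgTGG
DDA1-1: actcaccgaggctttgcacaCGG
DDA1-3: gctgatgcaggtagcgcaggAGG
CAND1-1: agtctagggctggtcaactgGGG
The exon given for each guide is the one that holds its expected cut site, and a guide may reach past that exon's edge. DCAF15-1 lies at chr19:13954393-13954412 on the plus strand, in coding exon 2 of 13. DDA1-1 matches chr19:17314090-17314109 on the minus strand, in coding exon 2 of 5. CAND1-1 matches chr12:67297462-67297481 on the minus strand, in coding exon 5 of 15. DDA1-3 matches coding exon 4 of DDA1 at chr19:17315962-17315981 on the minus strand, and the same bases followed by the same PAM occur at chr14:44887558-44887577 on the plus strand, inside a processed pseudogene (ENSG00000258509). That pseudogene had 0 to 4 reads per library, while DDA1 had 2201 to 2621.

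Total counts on genes ranged from 51727369 to 63186989 per library, and each of the 10 genes had between 1057 and 23837 reads in every library. Values are given as CPM, the count of a gene relative to the TMM-scaled total of its library, which allows a gene to be compared between libraries but not one gene with another. The epithelial markers KRT8 (3474 to 4103 CPM) and EPCAM (25.4 to 33.6 CPM) were present in every library, while the blood cell markers CD3E (0 reads) and PTPRC (0 to 3) were at or near 0. The summed level of 5 epithelial markers was 8245 to 8291 CPM in untreated libraries, 7769 to 7972 with indisulam, 7037 to 7228 with SPHINX31 and 7266 to 7425 with the combination, and KRT8 and KRT18 make up most of it. The 5 did not move together: EPCAM was higher with indisulam (log2 fold change 0.18, adjusted p = 0.0431) and CDH1 lower (-0.30, adjusted p = 0.000329), and with the combination EPCAM and KRT19 were higher and KRT8, KRT18 and CDH1 lower. Of the endothelial and fibroblast markers, COL3A1 (0 to 3 reads per library), CDH5 (0 to 8) and PDGFRB (5 to 17) were near 0, and PECAM1 stood at 1.45 to 2.36 CPM. CDKN2A, known as deleted in A549, was not at 0 (145 to 197 reads per library). The part of these levels in the results was not tested. In bulk RNA, fewer cells with a transcript and less of it per cell cannot be told apart.

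The clearest changes were in RBX1 and CUL4B. RBX1 was 21.9% higher with indisulam and fell by 20.3% with SPHINX31. CUL4B was 17.9% higher with indisulam and 19.6% higher with the combination, whereas CUL4A, its paralog, did not pass the test in either. DCAF15, DDA1 and DDB1, the receptor module that holds RBM39, passed the test in 0 of the 6 comparisons, as did both E2 enzymes, UBE2G1 and UBE2M, and 34.7% of all genes tested also passed in none. The test was the quasi-likelihood test of edgeR, adjusted by the Benjamini-Hochberg method over all 18661 genes, and a gene is said to be called where its adjusted p was under 0.05.

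Against untreated cells, indisulam changed 2 of the 10 genes (CUL4B and RBX1, both higher), where 43.7% of all genes tested were called (20.1% higher and 23.5% lower). SPHINX31 changed 1 of the 10 (RBX1, lower), where 8.61% of all genes were called (4.94% higher and 3.67% lower). Higher genes made up 57.3% of those calls, or 72.3% with library totals in place of TMM scaling. The combination changed 3 of the 10 (CUL4B and RBX1 higher, NEDD8 lower), where 50% of all genes were called (23.8% higher and 26.3% lower), and 47.5% of those calls were higher, or 55.3% with library totals. Those 3 comparisons share the untreated libraries. Set against indisulam alone, the combination changed 1 of the 10 (CAND1, lower) beside 7.5% of all genes (3.17% higher and 4.32% lower), and 42.3% of those calls were higher, or 65.4% with library totals. Set against SPHINX31 alone, it changed 3 of the 10 (CUL4B and RBX1 higher, CUL4A lower) beside 49.9% of all genes (23.4% higher and 26.5% lower). Whether these shares differ from those of all genes was not tested.

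The sizes of the changes can be set beside those of all genes in the same way. The median absolute log2 fold change of the 10 genes was 0.07 with indisulam, where that of all genes was 0.26. It was 0.07 with SPHINX31 beside 0.14 for all genes, and 0.09 with the combination beside 0.30. Each of the 10 had at least 1057 reads in every library, while the genes tested include some with far fewer. The medians were not matched for the number of reads, so they do not show that the 10 were steadier than genes of like depth. The median signed change of all genes lay within 0.01 of 0 in each of these comparisons. The interaction term asks whether the indisulam effect differed in the presence of SPHINX31. It called 0 of the 10 genes and 0 of all 18661 by edgeR's quasi-likelihood test (0% called), with 1584 genes at an unadjusted p under 0.05, and DESeq2 called 32 genes. RBX1 was the member with the largest interaction estimate, 0.21 on the log2 scale (adjusted p = 0.556). The median absolute interaction estimate was 0.13 for all genes and 0.09 for the 10.

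**Figure D1:**
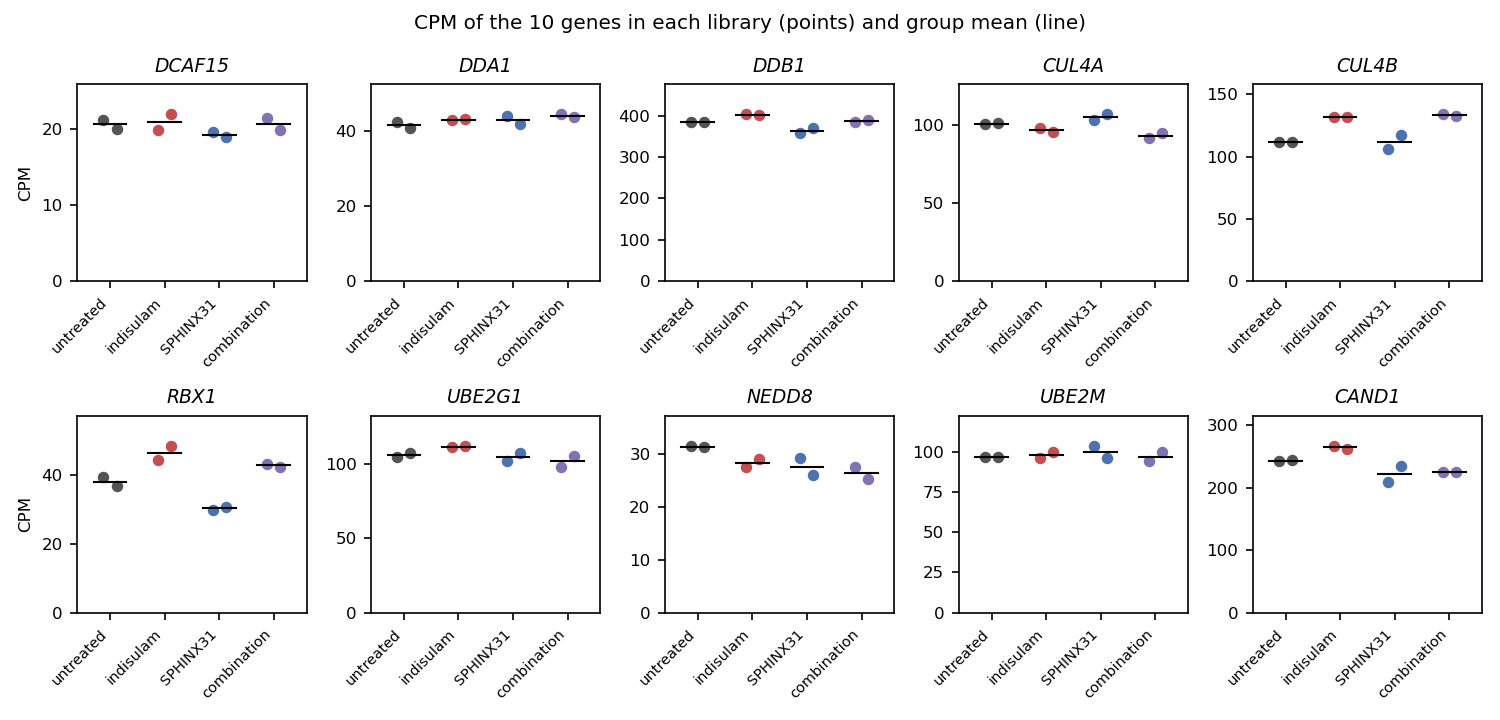
CPM (linear axis from 0) of each of the 10 genes in the 2 libraries of each group, with points for libraries and a line for the group mean. RBX1 sits near 30 CPM in both SPHINX31 libraries and above 44 CPM in both indisulam libraries. CUL4B sits above 131 CPM in the 4 libraries that had indisulam. The points of UBE2M mix between groups, and those of DCAF15 mix except with SPHINX31, where both are lowest.

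DCAF15 (ENSG00000132017, chr19:13952509-13961449, plus strand), the receptor that indisulam binds, had 21.2 and 19.9 CPM in untreated cells, 19.9 and 21.9 with indisulam, 19.5 and 18.9 with SPHINX31, and 21.4 and 19.9 with the combination. The SPHINX31 libraries were the lowest of the 8, and the other 3 groups overlapped. The log2 fold change with indisulam was 0.02 (SE 0.073, 95% interval -0.14 to 0.18). Over the 5 pairwise comparisons the intervals ran from -0.26 to 0.26 on the log2 scale, and a p that missed the threshold does not show that the level was the same.

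DDA1 (ENSG00000130311, chr19:17309518-17323298, plus strand) held the narrowest range of the 10 genes, 8.2% of its median over the 8 libraries. It had 42.4 and 40.9 CPM in untreated cells, 42.9 and 43.2 with indisulam, 44 and 41.8 with SPHINX31, and 44.5 and 43.7 with the combination. Both libraries of indisulam and of the combination were above both untreated libraries, by small margins, and none of the comparisons passed the test. The 5 intervals lay between -0.09 and 0.20.

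DDB1 (ENSG00000167986, chr11:61299451-61342596, minus strand), the adaptor shared by all CUL4 receptors, had 386 and 384 CPM in untreated cells, 403 and 402 with indisulam, 358 and 370.0 with SPHINX31, and 386 and 389.5 with the combination. Both indisulam libraries were the highest and both SPHINX31 libraries the lowest, with the untreated and combination libraries between. No comparison passed the test. With SPHINX31 the log2 fold change was -0.08 (adjusted p = 0.297), and with the combination against SPHINX31 it was 0.09 (adjusted p = 0.105) after Benjamini-Hochberg adjustment of edgeR's test. The latter passed after correction for GC content (adjusted p = 0.0262) and with library totals in place of TMM scaling (adjusted p = 0.0436).

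The cullin scaffolds did not move together. CUL4B (ENSG00000158290, chrX:120505920-120604074, minus strand) had 112 and 111 CPM in untreated cells, 132 in both indisulam libraries, 106 and 117 with SPHINX31, and 134 and 133 with the combination. All 4 libraries that received indisulam were above all 4 that did not. CUL4B rose by 0.24 on the log2 scale with indisulam (SE 0.053, adjusted p = 0.00279), by 0.26 with the combination (SE 0.053, adjusted p = 0.00121) and by 0.26 with the combination against SPHINX31 (SE 0.053, adjusted p = 0.00131). SPHINX31 alone left an interval of -0.11 to 0.12, and its 2 libraries differed more from each other than the group differed from untreated cells.

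CUL4A (ENSG00000139842, chr13:113208193-113267108, plus strand) had 100.3 and 101 CPM in untreated cells, 97.9 and 95.4 with indisulam, 103 and 107 with SPHINX31, and 91.8 and 94.5 with the combination. The 4 groups did not overlap, with SPHINX31 highest and the combination lowest. CUL4A shares 5.6% of its exon bases with PCID2 on the opposite strand (35.5 to 43.1 CPM). If strand was not used in counting, reads on those bases could not be given to either gene alone. The drop from SPHINX31 to the combination was the only one that passed, at -0.17 on the log2 scale (SE 0.049, adjusted p = 0.0109). Without SPHINX31 replicate 2 or without combination replicate 1 it did not pass (adjusted p = 0.0682 and 0.0882). Against untreated cells CUL4A stood at -0.06 with indisulam (adjusted p = 0.366) and -0.11 with the combination (adjusted p = 0.0757). The latter passed after correction for GC content (adjusted p = 0.0299) and with that correction and a replicate block (0.0391). It also passed with a replicate block in which the indisulam numbers were exchanged (0.0345).

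The ratio of CUL4A to CUL4B reads within a library does not depend on the scaling between libraries. It was chosen after the values were seen and carries no test. It was 0.897 and 0.906 in untreated cells and 0.969 and 0.910 with SPHINX31, against 0.745 and 0.725 with indisulam and 0.686 and 0.711 with the combination. Each library with indisulam had a lower ratio than each library without it.

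RBX1 (ENSG00000100387, chr22:40951347-40973309, plus strand), the RING subunit that all CUL4 ligases share with most other cullins, varied most of the 10, over 45.1% of its median. It had 39.3 and 36.6 CPM in untreated cells, 44.4 and 48.3 with indisulam, 29.9 and 30.7 with SPHINX31, and 43.1 and 42.3 with the combination. No groups overlapped: SPHINX31 was lowest, followed by untreated cells, the combination and indisulam. RBX1 rose with indisulam by 0.29 on the log2 scale (SE 0.062, adjusted p = 0.00216). With SPHINX31 it fell by 0.33 (SE 0.063, adjusted p = 0.0062).

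The combination placed RBX1 between the single treatments. It was 0.17 above untreated cells on the log2 scale (SE 0.062, adjusted p = 0.0357) and 0.50 above SPHINX31 alone (SE 0.063, adjusted p = 2.44e-05), a 41.1% increase and the largest change of any of the 10 genes in any pairwise comparison. Against indisulam alone its log2 fold change was -0.12, which did not pass (interval -0.25 to 0.02, adjusted p = 0.294). The call against untreated cells was the least secure: the adjusted p was 0.0503 by DESeq2, and 0.265, 0.112 and 0.0824 without untreated replicate 2, combination replicate 1 or combination replicate 2. The fall with SPHINX31 did not pass without untreated replicate 1 (adjusted p = 0.0981).

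UBE2G1 (ENSG00000132388, chr17:4269259-4366675, minus strand), the E2 enzyme that extends ubiquitin chains on CUL4 substrates, had 105 and 107 CPM in untreated cells, 111 and 112 with indisulam, 102 and 107 with SPHINX31, and 97.8 and 105 with the combination. Both indisulam libraries were the highest of the 8, while the other groups overlapped. UBE2G1 passed in none of the comparisons. The closest was the combination against indisulam, at -0.14 on the log2 scale (interval -0.25 to -0.02, adjusted p = 0.147).

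Of the neddylation genes, NEDD8 (ENSG00000129559, chr14:24216857-24232367, minus strand) was highest without any drug. It had 31.5 and 31.3 CPM in untreated cells, 27.5 and 29.0 with indisulam, 29.3 and 26.0 with SPHINX31, and 27.4 and 25.3 with the combination. All 6 treated libraries were below both untreated libraries, and those of SPHINX31 overlapped both other treated groups. NEDD8 fell by 0.25 on the log2 scale with the combination (SE 0.071, adjusted p = 0.00943). The estimates for indisulam (-0.15, adjusted p = 0.0987) and SPHINX31 (-0.19, adjusted p = 0.123) did not pass. The call for the combination did not hold without untreated replicate 1 (adjusted p = 0.0517) or combination replicate 2 (adjusted p = 0.0903).

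NEDD8 shares 44.2% of its canonical transcript, on the same strand, with the read-through gene NEDD8-MDP1, which was listed at 0 reads in all libraries. Reads on the shared bases cannot be given to either gene alone, so the NEDD8 values rest on the rest of the transcript if such reads were set aside as ambiguous. The share of ambiguous reads was 4.82% to 6.03% per library.

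UBE2M (ENSG00000130725, chr19:58555712-58558954, minus strand), the E2 that charges CUL4 with NEDD8, had 96.9 and 96.8 CPM in untreated cells, 96.3 and 99.8 with indisulam, 104 and 96.1 with SPHINX31, and 94.3 and 99.8 with the combination. In every treated group 1 library lay below and 1 above both untreated values. UBE2M passed in no comparison, and its 5 intervals lay between -0.16 and 0.16 on the log2 scale.

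CAND1 (ENSG00000111530, chr12:67269358-67319953, plus strand), the exchange factor, had 242 and 244 CPM in untreated cells, 267 and 263 with indisulam, 209 and 235 with SPHINX31, and 226 and 225 with the combination. Both indisulam libraries were the highest of the 8, and the combination libraries fell inside the wide range of the SPHINX31 libraries. Between the combination and indisulam alone CAND1 fell by 0.23 on the log2 scale (SE 0.055, adjusted p = 0.0215), and it was the only member that separated these groups by the test. This call did not hold without indisulam replicate 1 (adjusted p = 0.103), combination replicate 1 (0.111) or combination replicate 2 (0.126). Against untreated cells the estimates were 0.12 with indisulam (adjusted p = 0.0858), -0.13 with SPHINX31 (adjusted p = 0.168) and -0.11 with the combination (adjusted p = 0.115). None of them passed. That for indisulam did pass with only the libraries compared (adjusted p = 0.0212), with a GC correction (0.0431), with exchanged replicate numbers (0.0459) and without SPHINX31 replicate 1 or 2 (0.0248 and 0.0249). That for the combination passed with only the libraries compared (adjusted p = 0.0464), and that for SPHINX31 passed without SPHINX31 replicate 2, at -0.22 (adjusted p = 0.0213).

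**Figure D2:**
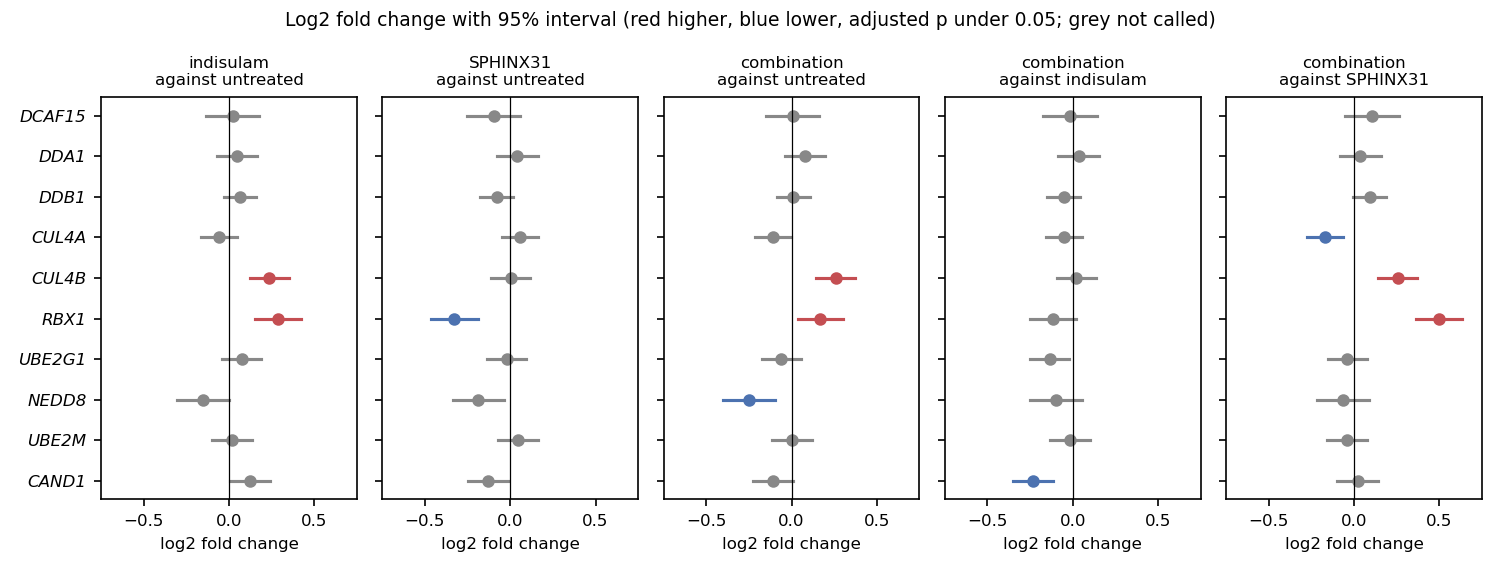
Log2 fold change of each of the 10 genes in the 5 pairwise comparisons, with bars for the 95% interval and colour for genes called higher (red) or lower (blue) at an adjusted p under 0.05. The coloured points are RBX1 in 4 panels, CUL4B in 3, and CUL4A, NEDD8 and CAND1 in 1 each, and the largest is RBX1 at 0.50 in the combination against SPHINX31.

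Libraries of different groups stood apart for many genes. With indisulam the 2 libraries did not overlap those of untreated cells for 8 of the 10 genes, but 73.2% of all genes behaved so. For SPHINX31 it was 6 of the 10 beside 54.1%, and for the combination 7 of the 10 beside 75.8%. Between the combination and indisulam 8 of the 10 did not overlap beside 50.8% of all genes, and between the combination and SPHINX31 5 of the 10 beside 74.3%. Of the 10 genes, 5 were called in none of the 6 comparisons, as were 34.7% of all genes tested.

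RBM39, the protein that the ligase destroys in the presence of indisulam, rose as RNA. Its libraries had 154 and 157 CPM in untreated cells, 361 and 360.3 with indisulam, 166 and 184 with SPHINX31, and 373 and 391 with the combination, or 1.22 on the log2 scale with indisulam (SE 0.055, adjusted p = 5.41e-09). RBM23, a related protein that is also brought to DCAF15, had 101 and 102 CPM in untreated cells and 138 and 135 with indisulam (log2 fold change 0.43, adjusted p = 9.24e-06).

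The other genes of the pathway were taken as lists. With indisulam, where 43.7% of all genes were called, 3 of the 9 other neddylation genes rose and 2 fell, with a median log2 fold change of 0.07 beside -0.0041 for all genes. DCUN1D2, a co-factor that helps UBE2M place NEDD8 on cullins, rose from 7.73 and 8.27 CPM to 10.2 in both indisulam libraries and to 12.8 and 12.6 with the combination. Its log2 fold change was 0.35 with indisulam (adjusted p = 0.00278) and 0.67 with the combination (adjusted p = 1.10e-05), and it was the only one of the 9 that also rose from indisulam to the combination (0.31, adjusted p = 0.0263). UBE2F, the second NEDD8-conjugating enzyme, which serves CUL5, fell from 7.01 and 7.04 CPM to 5.12 and 4.87 with indisulam (log2 fold change -0.49, adjusted p = 0.000795). NAE1, a subunit of the enzyme that activates NEDD8, fell by 0.22 with indisulam and by 0.37 with the combination. With the combination against untreated cells 4 of the 9 rose and 2 fell, beside 50% of all genes called.

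Of the 11 genes of the COP9 signalosome and deneddylation, 4 rose and 1 fell with indisulam (median 0.10), beside 43.7% of all genes called. COPS5, the subunit that cuts NEDD8 off cullins, had 47.7 and 49.4 CPM in untreated cells, 76.4 and 73.1 with indisulam, 48.1 and 45.7 with SPHINX31, and 73.8 and 74.2 with the combination. The 4 libraries with indisulam stood clear of the other 4, and the log2 fold change was 0.62 with indisulam (SE 0.054, adjusted p = 1.10e-06). COPS4 rose by 0.41 and COPS2 by 0.24, whereas COPS3, another subunit of the same complex, fell by 0.43. The combination changed 8 of the 11, 4 higher and 4 lower, beside 50% of all genes. Between the combination and indisulam alone 3 of the 11 (COPS6, COPS7A and GPS1) were lower, beside 4.32% of all genes.

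The other cullins and exchange factors divided as well, with 2 of 8 higher and 2 lower with indisulam, beside 20.1% of all genes higher and 23.5% lower. CUL7 rose by 0.34 and CUL2 by 0.28 on the log2 scale, and CUL1, the scaffold of the SCF ligases, fell by 0.40. CUL9 had 22.7 and 24.4 CPM in untreated cells and 15.9 and 14.3 with indisulam, so that it fell by 0.64. Of 11 ubiquitin-activating and ubiquitin-conjugating enzymes and their partners, 2 rose and 4 fell with indisulam, against the same shares of all genes. UBE2D3 rose by 0.23 and UBE2D4 fell by 0.47, both E2 enzymes of the same family.

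The other CUL4 substrate receptors compete with DCAF15 for DDB1, and 15 of 23 were called with indisulam, 7 higher and 8 lower, beside the 43.7% of all genes. DCAF15 itself was not called. DET1, a DDB1-binding protein of the COP1 ligase, was scarce and had 1.33 and 1.64 CPM in untreated cells and 3.56 and 2.94 with indisulam, which is 1.14 on the log2 scale (SE 0.17, adjusted p = 0.000129). DCAF6 fell from 86.8 and 91.7 CPM to 51.6 and 49.1 (log2 fold change -0.83, adjusted p = 2.56e-07). DCAF10 fell by 0.74 and DDB2, the receptor for ultraviolet damage in DNA, by 0.57, while DCAF1 rose by 0.43. With the combination 7 of the 23 rose and 10 fell, beside 50% of all genes called.

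SPHINX31 alone called 1 gene of these 5 lists together, beside 8.61% of all genes. UBA1, the main ubiquitin-activating enzyme, had 443 and 437 CPM in untreated cells and 392 and 388 with SPHINX31, and fell by 0.18 on the log2 scale (adjusted p = 0.0272). The combination against SPHINX31 called 4 of 9 neddylation genes, 8 of 11 of the signalosome list, 5 of 8 other cullins, 7 of 11 ubiquitin enzymes and 14 of 23 receptors, beside 49.9% of all genes. The combination against indisulam called DDB2 higher (0.30) and DCAF11 lower (-0.23) among the 23 receptors and none of the ubiquitin enzymes or other cullins, beside 7.5% of all genes. The interaction called none of the genes on these lists.

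**Figure D3:**
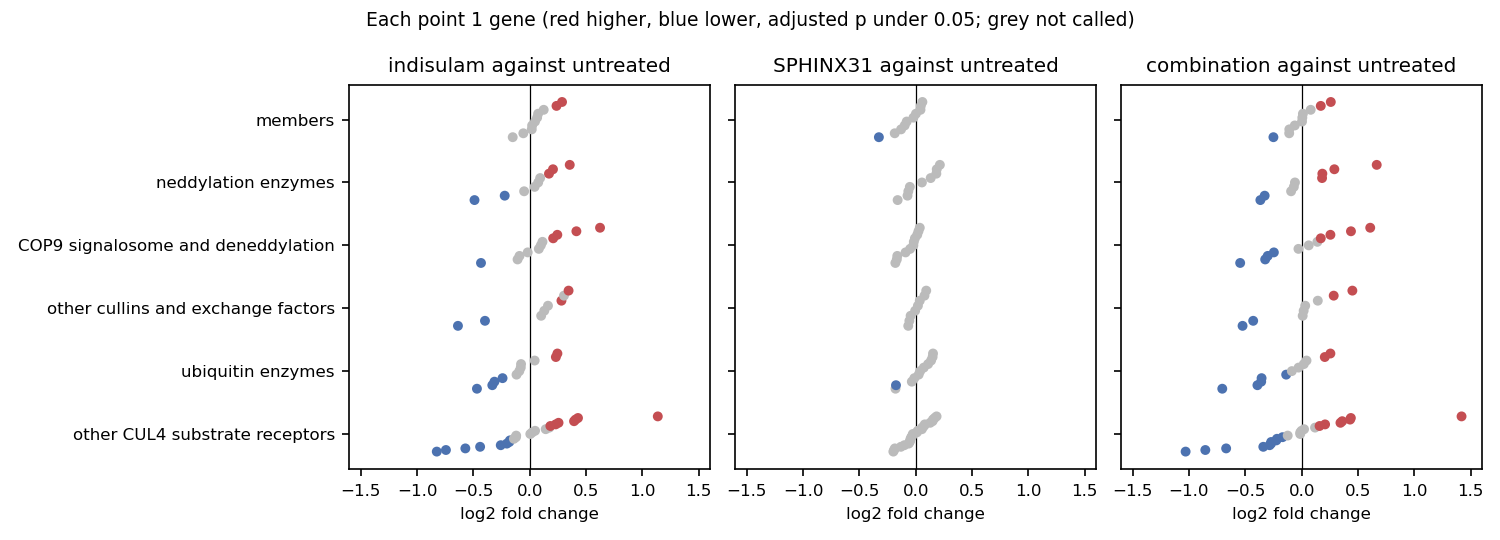
Log2 fold change against untreated cells (horizontal axis) of the 10 genes and of each gene on the 5 pathway lists, 1 point a gene, with red for called higher, blue for called lower and grey for not called. With indisulam and with the combination the lists scatter to both sides of 0, from DCAF6 at -1.03 to DET1 at 1.42 with the combination, and with SPHINX31 the called points are RBX1 and UBA1.

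Levels between the genes can be compared only per length. On the TPM scale, which relates the counts per length of a gene to the sum over all genes, and with the length of all its annotated exons, untreated cells held most UBE2M (194 and 202 TPM), followed by DDB1 (86.9 and 89.7) and UBE2G1 (79.8 and 84.8), and least DCAF15 (25.2 and 24.5) and CUL4B (11.6 and 12). Neighbours in that order did not overlap between the 2 untreated libraries. The order depended on the length used. CUL4B has 33815 bases of annotated exons and 5915 in its canonical transcript, and by the latter it stood at 39.0 and 39.9 TPM, above CUL4A at 35.5 and 36.7. NEDD8 has 3787 and 616 bases and moved from 29.1 and 30.0 TPM to 106 and 108. Of its canonical length 44.2% is shared with NEDD8-MDP1, and all of that length entered the TPM. If reads on the shared bases were set aside, the NEDD8 level is too low and its place in the order is uncertain. By canonical length DDB1 was highest (187 and 191 TPM), and DCAF15 (19.3 and 18.6) and DDA1 (21.6 and 21.4) were lowest. On either scale DCAF15 was below DDB1, CUL4A, RBX1 and UBE2M.

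**Figure D4:**
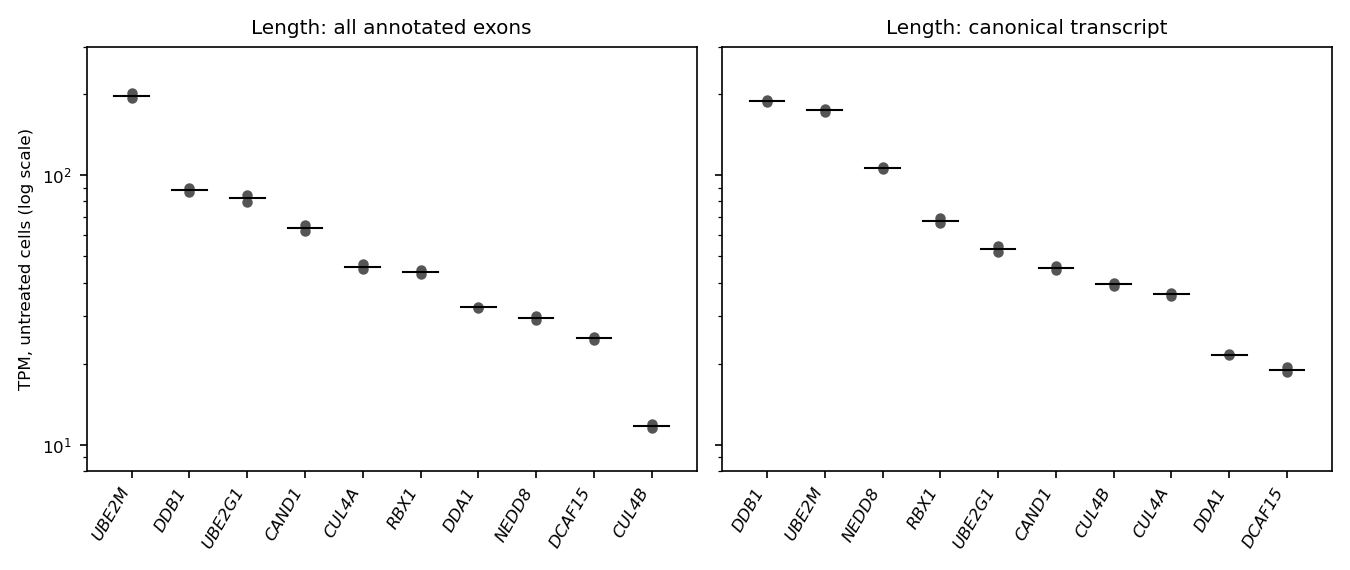
Level of the 10 genes in the 2 untreated libraries in TPM (log axis), with the length of all annotated exons on the left and of the canonical transcript on the right, and a line for the mean. DDB1 and UBE2M lead on the right at 189 and 175 TPM, DCAF15 stays near the bottom on both, and CUL4B moves from 11.8 to 39.4. The place of NEDD8 on the right is uncertain, because its canonical transcript shares bases with NEDD8-MDP1.

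The genes whose pattern over the 8 libraries was most like that of DCAF15, DDA1 or CAND1 were found by Pearson's r of log2 CPM among 13708 genes. For DCAF15 they were UNC93B1 (r = 0.97), CHMP1A (0.97) and CEP131 (0.96). DDA1 was most like LRG1 (0.97), MNT (0.97) and MTMR14 (0.96), and CAND1 was most like NCKAP5 (0.99), CCT6A (0.99) and ATPSCKMT (0.98). The genes named were not alone: of the 13708, 34 exceeded an r of 0.9 with DCAF15, 53 with DDA1 and 156 with CAND1. Such values rest on only 8 libraries in 4 groups, and DCAF15 and DDA1 were themselves called in none of the comparisons. These values are a description and carry no test.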

How the data were processed

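RNA of A549 cells was sequenced in 8 libraries, 2 technical replicates in each of 4 groups, which were taken from the treatment label. The authors deposited raw counts of reads per Ensembl gene, with no normalization. The submitters' processing notes name HISAT2 2.2.1, HTSeq and GRCh38. The kit was stranded, but the strand setting and the annotation release used for counting are not given in the sources used here. How reads on opposite-strand overlaps were counted (DCAF15 with PODNL1, DDA1 with ANO8, DDB1 with TKFC, CUL4A with PCID2) is therefore uncertain. Reads assigned to genes were 83.0% to 86.0% of those recorded, and the unassigned rows stayed out of library sizes and tests. Gene names, positions and lengths came from GENCODE release 44.

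Counts of all genes were fitted together in R 4.3.3 with edgeR 4.0.16 (filterByExpr, TMM, quasi-likelihood test, Benjamini-Hochberg adjustment, threshold 0.05), with all 8 libraries in a model of group means that left 4 residual degrees of freedom. The procedure was also run on simulated data with far fewer changed genes than were called here, and no result above rests on that run. TMM factors ran from 0.978 to 1.02 and the common biological coefficient of variation was 0.0491. Replicate libraries differed by more than sampling noise (chi-square per degree of freedom 6.35 to 10.1) and were kept as separate samples. Intervals are 95% intervals of the fit. Alternatives were edgeR's RLE factors, library totals, DESeq2 1.42.0, looser and stricter count filters, only the libraries compared, a replicate block, a GC correction, a threshold of 0.01 and leaving out each library. TPM was computed from counts and GENCODE lengths.

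The 10 genes, the pathway lists and the tests were chosen with earlier results of these data known. Named beyond the 10 were RBM39, RBM23 and, per list and comparison, up to 3 genes higher and 3 lower with the largest change among called genes of at least 1 CPM, and, for DCAF15, DDA1 and CAND1, the 3 genes with the highest r. A marker gene on the list of other cell types is not reported here.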

Additional observations from a re-analysis of the deposited data

Results flagged for a closer look

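Reads recorded outside annotated features are not part of the comparisons above, and they were more frequent with indisulam. Such reads can lie between genes or inside a gene but outside its counted features, and which of these held was not examined. They made up at most 4.34% of recorded reads in untreated libraries, at least 4.49% in the indisulam libraries and at least 4.87% in the combination libraries. Reads that matched more than 1 gene made up at most 5.22% in untreated libraries and at least 5.87% with indisulam, but 4.99% and 4.96% in the combination libraries, which also had indisulam, and 5.94% and 4.82% with SPHINX31. These shares were compared as values, without a test, and their part in the CPM of the 10 genes was not tested.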

How the results depend on the processing

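No called value changed direction. Among the 10 genes, CUL4B (with indisulam, with the combination, and combination against SPHINX31) and RBX1 (with indisulam, and combination against SPHINX31) were called under all 19 alternatives to each comparison, and each other call was lost under at least 1. Beside the losses given above, RBX1 with the combination was lost with every gene of at least 1 count kept (adjusted p = 0.0519) and under a GC correction with replicate block (0.053), and it, CAND1 (combination against indisulam) and CUL4A (combination against SPHINX31) were lost at a threshold of 0.01. Of 924 values called neither in the reported analysis nor under the alternative, 33 changed sign. Without single libraries the number of the 10 called ran from 2 to 3 with indisulam (5887 to 8379 of all genes), 0 to 2 with SPHINX31 (482 to 1810), 1 to 3 with the combination (7209 to 9565), 0 to 1 for the combination against indisulam (440 to 1612) and 2 to 3 against SPHINX31 (7340 to 9523), and for the interaction 0 to 1 of all genes. SPHINX31 called 0 of the 10 without untreated replicate 1 and 2 without SPHINX31 replicate 2, the combination called 1 without combination replicate 2, and combination against indisulam called 0 without indisulam replicate 1 or either combination replicate. With a GC correction the combination called 5 of the 10 (DDA1 and CUL4A added), and the counts over all genes were 2593 with SPHINX31, 2215 for combination against indisulam and 7 for the interaction. At a threshold of 0.01 SPHINX31 called 633 genes, with RBX1 still among them. Combination against indisulam called 540 at that threshold, with 0 of the 10. The interaction called 32 genes by DESeq2 and 94 with every gene of at least 1 count kept. The rank by TPM was the same for 6 of the 10 genes with the longest transcript and 0 with the canonical one.

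Same-numbered libraries did not deviate alike in every pair of groups. Their deviations correlated at -0.446 for untreated and indisulam, -0.410 for indisulam and SPHINX31, and 0.371 for untreated and SPHINX31. Pairs with the combination lay between -0.0096 and 0.129. Whether libraries of different groups shared a batch was not tested. A replicate block changed no call among the 10 (2, 1, 3, 1, 3 and 0 called) and gave 7851, 1330, 9077, 1169, 9074 and 0 of all genes, in the order used above. Exchanging the 2 indisulam numbers in that block, a pairing set up after the correlations were known, called 4 of the 10 with indisulam and 2 with SPHINX31, and 2630 of all genes with SPHINX31, 2252 for combination against indisulam and 12 for the interaction. The causes were not tested. With 2 technical libraries a group, their number limits all of these values.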
